A study of Mus musculus with 68 samples.

Results

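The genes described here were the 150 gene names whose RNA was most concentrated at the late 2-cell stage (L2C) in mouse embryos made by somatic cell nuclear transfer (SCNT), out of 24421 gene names measured. They were chosen from the measured values themselves. Among the 3737 genes with a mean of at least 20 TPM (transcripts per 1000000) at L2C, those with the largest log2 ratio of the L2C mean over the highest mean of 6 hours post activation (6 hpa), 14 hpa, the 8-cell stage (8C) and the morula were taken, with 1 TPM added to each side. Names of the Zscan4, Obox, Tdpoz, Usp17l, Pram and Hsp families had been set aside beforehand, which removed 4 genes that would otherwise have qualified, namely Obox3, Usp17lb, Tdpoz1 and Hspa2. This went by the listed name, so Gm9125 and Gm13078, which RefSeq names Tdpoz9 and Pramel24, remained among the 150 genes. All statements on L2C against those 4 stages are therefore a description of the choice and carry no test. The early 2-cell stage (E2C), the 4-cell stage (4C), the inner cell mass (ICM), the trophectoderm (TE), the donor cells and the fertilized embryos played no part in the choice.

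The SCNT embryos were made by injecting cumulus cell (CC) nuclei into enucleated oocytes of BDF1 mice, the hybrid of C57BL/6j females and DBA/2 males, and by activating them with strontium chloride in the presence of cytochalasin B. Polyadenylated RNA was read by Smart-seq2 in 3 CC libraries, in 6 libraries each of 6 hpa, 14 hpa, E2C, L2C, 8C, morula, ICM and TE, and in 5 libraries of 4C, all untreated beyond the transfer itself. A second experiment used fertilized C57BL/6j embryos whose zygotes had received a morpholino (MO), an antisense oligonucleotide, against Max or against Mcrs1. Their blastocysts gave 2 ICM and 2 TE libraries for each MO and for the control, which the labels call both control and untreated while the described procedure names a random control MO. By that procedure the control MO had the highest concentration and the Mcrs1 MO the lowest, so MO target and dose cannot be told apart. Each library held a pool of 10 blastomeres, so that embryos within a pool could not be told apart, and knockdown by MO was transient and partial. No fertilized 2-cell embryo was analysed here.

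The late 2-cell stage is the main window of zygotic genome activation in the mouse, when the embryo takes over transcription from the stored maternal RNA. Part of this wave belongs to a short-lived 2-cell programme driven by the transcription factor DUX, in which MERVL retroviral elements and neighbouring genes such as Zfp352 are switched on and soon silenced again. In SCNT embryos the activated genome is that of a differentiated somatic nucleus, which has to leave its own programme for the embryonic one.

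The libraries were uneven in ways that touch these genes. Aligned depth, estimated as coverage over FPKM, was 1.90 to 5.17 gigabases in CC and SCNT libraries and 1.00 to 3.19 in MO libraries. Annotated genes took 30.4% to 90.9% of the assembled TPM in SCNT libraries, with the lowest share in L2C replicate 1. That library also stood apart in 7 markers of the 2-cell embryo, whose summed level was 21.7 TPM against 221 to 612 TPM in L2C replicates 2 to 6. These markers did not single out L2C, with sums of 380 to 744 TPM at 6 hpa, 196 to 579 at 14 hpa and 362 to 658 at E2C. L2C replicate 1 was the lowest of the 6 L2C libraries for 69 of the 150 genes and below 1 TPM for 14 of them. The share over all genes was not computed, so nothing is read from these counts. When L2C replicate 1 was left out of the L2C mean, 138 of the 150 genes were still chosen. The 10 CC markers summed to 1562 to 2423 TPM in CCs, where Amh was listed at 0, and to at most 47.5 TPM in any embryo library. The files do not say that libraries of a group came from separate collections of embryos, so p-values measure only the spread between these libraries.

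Promoter sequences were available from RefSeq (GRCm38.p6) for 125 of the 150 genes, in windows of 300 bases from 250 before to 50 after a transcript start. GGATTA, read on both strands, is the core bound by bicoid-type homeodomain factors such as OTX2. It occurred in 22 of these windows (17.6%), against 6.55% of the windows of 3040 genes at 20 TPM or more at L2C and 7.23% of 27025 windows of all genes. Near-identical gene copies contributed to this count. When windows with at least 80% identity were counted once, 14 of 116 (12.1%) held it. The following 4 stretches of 250 bases before the start hold it, with GGATTA or its reverse complement TAATCC in capitals, and belong to Zfp352 (chr4:90218570-90218819, plus strand), AF067061 (chr13:120262845-120263094, plus strand), Gm4027 (chr12:87618659-87618908, plus strand) and Gm21304 (chr10:104168265-104168514, plus strand). They are shown because 3 of them belong to genes of the 2-cell programme and the fourth stands for 5 near-identical windows.
Zfp352: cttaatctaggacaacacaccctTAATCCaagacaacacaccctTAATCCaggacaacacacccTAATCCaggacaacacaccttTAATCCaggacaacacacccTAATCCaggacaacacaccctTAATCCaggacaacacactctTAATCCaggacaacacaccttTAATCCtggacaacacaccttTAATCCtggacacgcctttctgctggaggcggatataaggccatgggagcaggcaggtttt
AF067061: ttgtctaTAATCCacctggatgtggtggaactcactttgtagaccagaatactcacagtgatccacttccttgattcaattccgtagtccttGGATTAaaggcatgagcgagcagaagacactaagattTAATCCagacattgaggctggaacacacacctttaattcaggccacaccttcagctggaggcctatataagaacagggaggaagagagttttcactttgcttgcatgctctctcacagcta
Gm4027: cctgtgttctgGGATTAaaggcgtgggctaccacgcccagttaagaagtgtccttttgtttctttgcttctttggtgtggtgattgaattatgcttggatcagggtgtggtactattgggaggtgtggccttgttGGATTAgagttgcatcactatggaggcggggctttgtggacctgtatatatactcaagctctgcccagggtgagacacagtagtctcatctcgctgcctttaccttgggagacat
Gm21304: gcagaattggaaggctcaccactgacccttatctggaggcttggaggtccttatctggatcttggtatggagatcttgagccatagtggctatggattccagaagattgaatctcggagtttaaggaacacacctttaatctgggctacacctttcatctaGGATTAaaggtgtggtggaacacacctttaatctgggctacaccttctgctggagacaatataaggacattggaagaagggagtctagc

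Zfp352 carried 9 matches, all on the minus strand, in a tandem arrangement between 61 and 227 bases before its start. AF067061 carried 3 matches, Gm4027 carried 2, and Gm21304 carried 1 at 89 bases before its start. The windows of Gm8764, Gm21293 and Gm20765 were identical to that of Gm21304 over 300 bases, and that of Gm21312 differed at 1 base. A match describes these letters and is neither a binding site nor a cause.

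The second set of sequences is shown because Gm428 and Gm11758, both on chromosome 4, whose windows differed at 9 of 300 bases, fell steeply from E2C to 4C, as described further on. Capitals mark GGATTA at 114 bases, AGGTCA (the half-site of many nuclear receptors) at 100 bases, and TATAAA (the TATA box core) on both strands, overlapping in TTTATAAA, at 32 and 34 bases before the start. Gm428 lay at chr4:73683264-73683513 on the plus strand and Gm11758 at chr4:73876267-73876516 on the minus strand.
Gm428: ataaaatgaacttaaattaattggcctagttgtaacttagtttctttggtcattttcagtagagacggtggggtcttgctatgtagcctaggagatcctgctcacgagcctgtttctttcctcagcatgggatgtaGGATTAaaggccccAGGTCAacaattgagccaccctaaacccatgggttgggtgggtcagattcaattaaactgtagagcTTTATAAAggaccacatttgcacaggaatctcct
Gm11758: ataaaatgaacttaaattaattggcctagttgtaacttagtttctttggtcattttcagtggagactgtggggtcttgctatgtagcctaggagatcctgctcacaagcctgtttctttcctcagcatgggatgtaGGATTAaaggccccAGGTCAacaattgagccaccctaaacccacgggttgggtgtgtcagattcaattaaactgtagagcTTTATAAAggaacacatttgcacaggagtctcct

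No other motif searched exceeded the share in both comparison sets by as much. TATAAA occurred in 14.4% of the windows, against 7.80% of genes at 20 TPM or more at L2C and 14.1% of all genes. AGGTCA occurred in 11.2%, against 12.96% and 16.2%. CACGTG, the E-box bound by MYC and MAX, occurred in 7 windows (5.60%), against 11.1% and 7.09%. GGGCGG, the GC box bound by SP factors, occurred in 49.6%, between the 63.8% of genes at 20 TPM or more at L2C and the 35.6% of all genes.

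The level of the 150 genes was highest at L2C and low again by 8C, as the choice required. The median over the genes of the stage mean was 1.09 TPM at 6 hpa, 3.34 at 14 hpa, 9.19 at E2C, 39.4 at L2C, 16.3 at 4C, 5.14 at 8C and 5.43 at morula. By single libraries, the median gene stood at 27.1 to 48.7 TPM in the 6 L2C libraries, above the range of every other stage. Since TPM is a share of the RNA of a pool, fewer cells expressing a gene and less of its RNA per cell cannot be told apart. For 72 genes the lowest L2C library lay above every library of 6 hpa, 14 hpa, 8C and morula, and for 108 genes without L2C replicate 1. Over all 11867 genes the shares were 1.65% and 2.92%, and since the choice used these stages nothing is read from the counts.

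**Figure D1:**
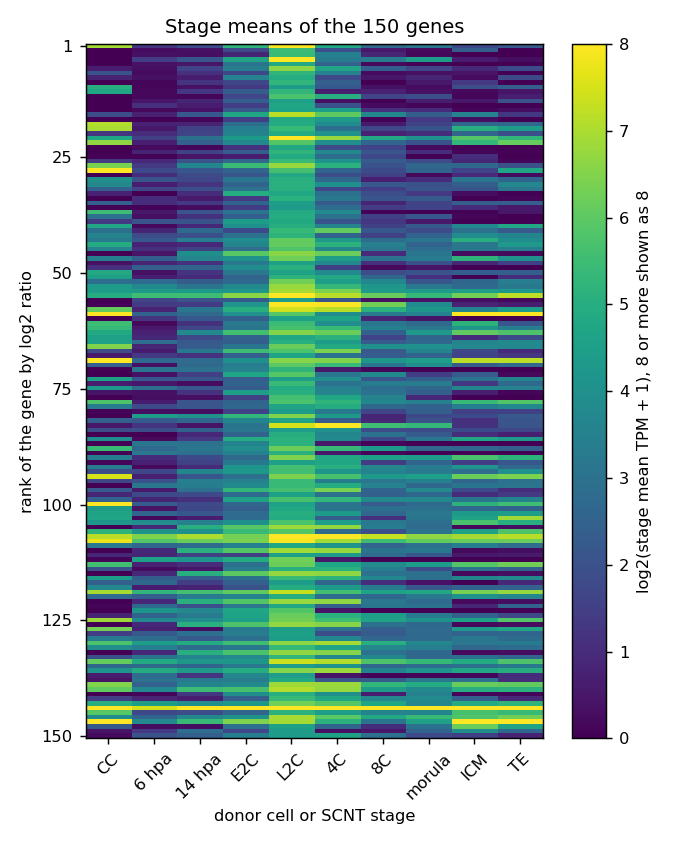
Heat map with 1 line per gene, ordered by log2 ratio from the top, and 1 column per stage, coloured by log2(stage mean TPM + 1) from 0 to 8. The L2C column is the brightest for most genes, 4C and E2C come next, and bright lines in CC, ICM and TE mark genes such as Id2 and Lgals1 that are also high there.

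The name of a transient L2C peak did not hold for all of the genes. The choice had already set the L2C mean above those of the stages it used, so only E2C, 4C, ICM or TE could be higher. Over all SCNT stages, including those the choice did not use, 126 of the 150 genes had their highest mean at L2C. A further 12 were highest at 4C, among them Hba-a1, Gm4027, BB287469, Ankrd22, Pds5a and Fbxo47. Another 9 were highest in TE, namely Lxn, Lgals1, Psme2, Zfp317, Skil, Ndrg1, Cdkn3, Scd1 and Id2. Nans and Psmb9 were highest in ICM and the lncRNA Gm9895 at E2C. The shares over all genes were not computed, so nothing is read from these counts. Near the lower limit of the choice the ratio changed little. The last genes inside were Psmb9, 4930548H24Rik and Fbxo47, with log2 ratios of 1.527, 1.518 and 1.517, and the first outside were Cbfb, B2m and Cenpl, with 1.512, 1.504 and 1.503.

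The 30 genes with the largest ratios included few of the known 2-cell markers. Gstm1, a glutathione S-transferase of detoxification, led with a log2 ratio of 5.10. Its level was 229 to 400 TPM in the 6 L2C libraries (median 272), at most 2.89 TPM at 6 hpa, and at most 31.3 TPM in any 14 hpa, 8C or morula library. The L2C libraries did not overlap any of these. At E2C its replicates split, with 46.2, 95.5 and 57.8 TPM in replicates 1 to 3 and 3.34, 2.69 and 3.04 TPM in replicates 4 to 6.

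Rfpl4b, a RING-finger gene of the RET finger protein-like family on the fixed 2-cell list, came second with 0, 25.0, 21.5, 87.8, 56.8 and 63.5 TPM in L2C replicates 1 to 6. The 0 was that of L2C replicate 1, so the L2C range overlapped the other stages there. The next were the lncRNA Frmpd1os, with 0.200 to 72.8 TPM at L2C (median 49.4), the pseudogene Gm4850, with 21.6 to 749.6 TPM (median 556), and the lncRNA 4930547E08Rik, with 14.9 to 52.6 TPM (median 24.7). None of these 3 exceeded 3 TPM in any CC, ICM or TE library.

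Genes with known enzymatic or regulatory roles followed. Rbp7, a cellular retinol-binding protein, ranged from 53.2 to 184.6 TPM at L2C and reached at most 9.11 TPM at 8C. Yod1, a deubiquitinase, ranged from 6.36 to 75.8 TPM, and Dbp, a PAR bZIP transcription factor of the circadian clock, from 8.25 to 51.2 TPM. Meig1, needed in spermiogenesis, had 7.71 to 88.4 TPM at L2C, and Ldhc, the testis lactate dehydrogenase, had 2.90 to 44.7 TPM. Mns1, a sperm flagellum protein, ranged from 28.6 to 50.6 TPM between L2C libraries, with 41.0 ± 7.22 TPM (SD, n = 6).

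Several of the 30 were also abundant in the donor cells. The PCNA-associated factor 2810417H13Rik (Pclaf) had 20.1 to 64.9 TPM at L2C, 22.5 to 28.7 TPM in CCs and at most 0.793 TPM at 4C. Slc38a2, an amino acid transporter, had 12.2 to 49.7 TPM at L2C and 117 to 148 TPM in CCs. Lxn, a carboxypeptidase inhibitor, had 30.9 to 80.6 TPM at L2C and 93.2 to 109 TPM in CCs. Tob1, an antiproliferative adaptor of mRNA deadenylation, had 32.2 to 189 TPM at L2C and 67.2 to 100.5 TPM in CCs.

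Other members of the 30 were Cep97, a centriolar protein, with 76.1 to 171 TPM at L2C, and Zfp367, a zinc finger factor, with 468, 534 and 301 TPM in L2C replicates 1 to 3 and 95.2 to 124.1 TPM in replicates 4 to 6. The remaining ones were 1190002F15Rik, Gm9125, Pla2g1b (a secreted phospholipase), AF067061, B020031M17Rik, Gm12789, Sccpdh, 4921531C22Rik, 1700065O20Rik, AU015228, Prrx2 (a homeobox factor), 1110007C09Rik and C1galt1 (which extends O-glycans). Their L2C means ran down to 20.6 TPM for 1190002F15Rik.

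Most of the genes coded for proteins. The annotation gave 130 protein-coding genes, 15 lncRNAs, 3 transcribed pseudogenes and 1 snoRNA, and 1 name had no match. Their median of 4 exons (148 matched) lay below the 6 exons of genes at 20 TPM or more at L2C. Of the genes, 15 fell into 5 sets of names that overlapped on the same strand. Within a set the profiles correlated at r of 0.98 or more over the SCNT libraries. The sets were Rmnd1 with Gm5512, Gm4027 with BB287469, Gm13871 with Gm11757 and Gm11758, and Gm428 with LOC100502896. The last was Gm21304 with Gm6763, Gm8764, Gm21293, Gm21312 and Gm20765. Sequence identity was not measured for all of them. Values within such a set are uncertain, since reads shared between its names may have been split. Counting each set once left 140 profiles. Another gene overlapped 21 of the genes on the same strand and 23 on the opposite strand, and reads there could not be assigned with certainty because Smart-seq2 does not keep strand. Apart from these sets, Rbp7 with Nmnat1 and Dbp with Sult2b1 lay within 100 kb of each other.

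The pattern was also described across libraries that had not been used to choose. When the same rule was applied to replicates 1 to 3 alone, 110 of the 150 genes it took were at least 2-fold above the 4 stages in replicates 4 to 6, with a median log2 ratio of 1.62. Among all genes at 20 TPM or more, 7.03% reached that ratio and the median was −0.81. In the reverse direction 104 of 150 did so in replicates 1 to 3, with a median of 1.39, against 7.47% and a median of −1.14 over all genes. The lists chosen from the separate sets shared 54 genes, which is 36.0% of each list of 150.

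**Figure D2:**
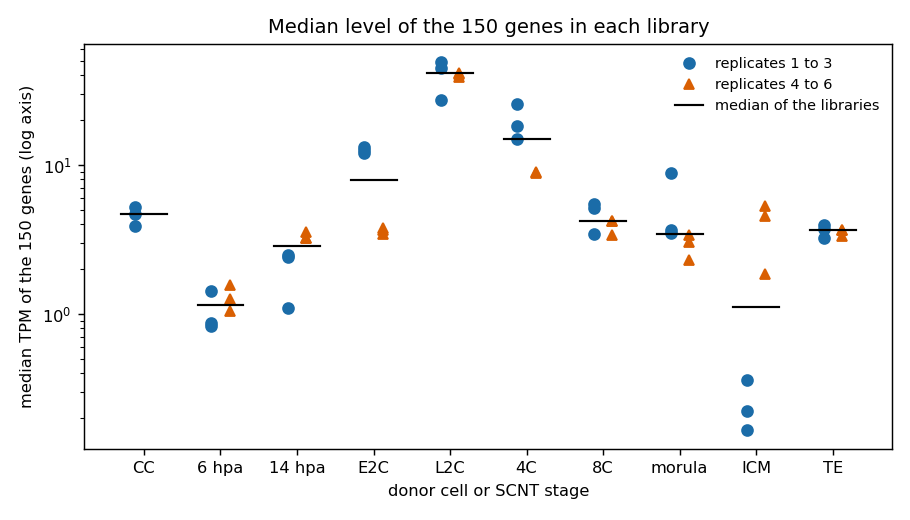
Median TPM of the 150 genes in every library, by stage, on a log axis. L2C libraries lie at 27.1 to 48.7 TPM, and E2C, 4C and ICM libraries fall into separate levels in replicates 1 to 3 and the later replicates.

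Replicates 1 to 3 and the later replicates differed at E2C, 4C and ICM, and the labels do not say what distinguished them. The median gene stood at 12.03 to 13.2 TPM in E2C replicates 1 to 3 and at 3.45 to 3.77 TPM in replicates 4 to 6. At 4C it stood at 14.9 to 25.5 TPM in replicates 1 to 3 and at 8.84 to 9.01 TPM in replicates 4 and 5. In ICM it stood at 0.165 to 0.358 TPM in replicates 1 to 3 and at 1.86 to 5.28 TPM in replicates 4 to 6, so the order of the sets was the opposite there. For 93 of the 150 genes all E2C replicates 1 to 3 lay above all of replicates 4 to 6, where 19.7% of all 11867 genes did so, and for 10 genes they lay below, where 21.3% did so. At 4C the counts were 55 above, where 9.24% of all genes did so, and 13 below, where 29.7% did so.

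The flanks of the peak were unequal. The median gene held 22.01% of its L2C mean at E2C and 39.3% at 4C. Within replicates 1 to 3 these shares were 27.3% and 43.6%, and within the later replicates 12.6% and 23.98%, so that the 4C share was the larger in both sets. At least 50% of the L2C mean was present at E2C for 17 genes and at 4C for 60 genes. Neither the median shares nor these counts were computed over all genes expressed at L2C. Whether the larger 4C share is particular to the chosen genes was therefore not tested.

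**Figure D3:**
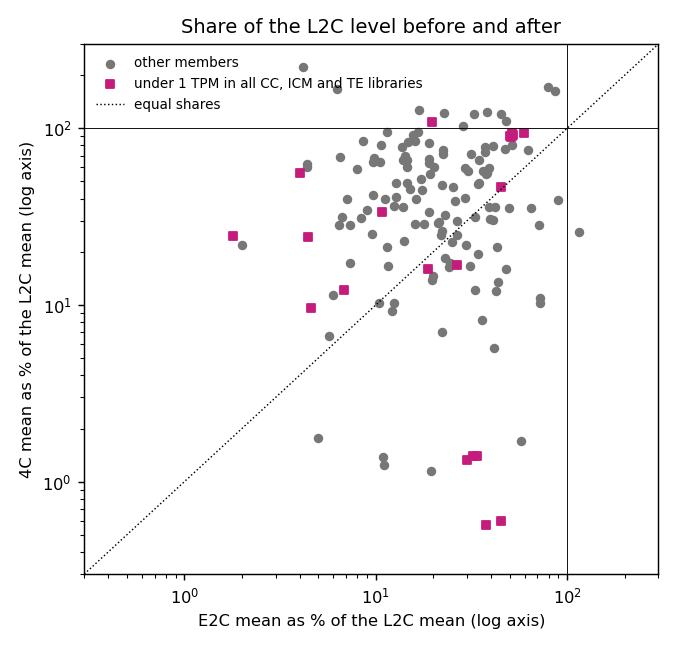
E2C mean against 4C mean of each of the 150 genes, both as a percent of its L2C mean and on log axes. The median gene holds 22.01% at E2C and 39.3% at 4C, and single genes run from under 1% to over 200% at 4C.

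The extremes named genes with sharp edges. Frmpd1os held 1.79% of its L2C level at E2C, the homeobox gene Prrx2 1.999%, 1600025M17Rik 4.02%, the alpha globin gene Hba-a1 4.17% and B020004C17Rik 4.38%. At the other end Gm9895 held 115%, 4930579G24Rik 89.2%, Gm4027 86.2%, BB287469 79.3% and the cytokine gene Tslp 72.0%. After the peak Gm428 held 0.566% at 4C, LOC100502896 0.599%, Pla2g1b 1.14%, 4930548H24Rik 1.24% and Gm13871 1.32%. The highest 4C shares were those of Hba-a1 with 222%, BB287469 with 172%, 2900076A07Rik with 166%, Gm4027 with 163% and Gm16062 with 126%.

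The comparison of 4C with E2C asked on which side of the peak each gene remained higher. The choice had not used E2C or 4C, but it had required low levels relative to the peak at earlier and later stages. The background was all genes tested, not genes that were also low at those stages. How far the choice shaped the counts and the median below was therefore not tested. Of the 150 genes, 56 were higher and 19 lower at 4C by limma on log2(TPM + 1), where a call needed a change of 2-fold or more and a p, adjusted by Benjamini-Hochberg, below 0.05. Over all 11867 genes tested, 27.0% were higher and 29.7% lower (56.7% in all). The median log2 change of the 150 genes was 0.75, against 0.01 over all genes. With each set of overlapping names counted once, 56 were higher and 16 lower of 140. In replicates 1 to 3 alone 33 were higher and 18 lower, where 18.9% and 24.6% of 11610 genes were. In the later replicates 62 were higher and 22 lower, where 32.5% and 30.5% of 11972 genes were. In both sets 23 were higher and 7 lower, where 16.7% and 21.6% of the 11166 genes tested in both were. 2700099C18Rik and Scd1 were called in opposite directions in the separate sets, with log2 changes of 2.09 and −1.66 in replicates 1 to 3 and of −1.25 and 2.57 in the later replicates.

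Hba-a1, which encodes alpha globin and is best known from red blood cells, rose most from E2C to 4C. Hba-a1 overlapped Hba-a2 and Hbq1b on the same strand, so reads could not be assigned to it with certainty. It had 8.90, 5.66, 17.4, 6.60, 2.98 and 3.46 TPM at E2C and 519, 428, 908, 52.9 and 91.0 TPM at 4C. The stages did not overlap, and the log2 change was 5.09 (SE 0.661, limma adjusted p = 3.01e-09). It was already present at L2C, with 272, 300.3 and 384 TPM in replicates 1 to 3 and 52.9, 51.8 and 19.4 TPM in replicates 4 to 6.

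B020004C17Rik had 2.61 to 38.01 TPM at E2C and 115 to 491 TPM at 4C, a log2 change of 4.06 (SE 0.739, limma adjusted p = 4.76e-06). Hmox2, the constitutive heme oxygenase, had 4.25 to 21.98 TPM at E2C and 72.7 to 181 TPM at 4C, a log2 change of 3.11 (SE 0.763, limma adjusted p = 0.000427). Cul3, the scaffold of a ubiquitin ligase family, had 9.76 to 29.9 TPM at E2C and 99.8 to 161 TPM at 4C, a log2 change of 2.94 (SE 0.519, limma adjusted p = 2.85e-06). Zfp367 had 2.89 to 53.2 TPM at E2C and 73.5 to 154 TPM at 4C, a log2 change of 2.97 (SE 0.630, limma adjusted p = 6.02e-05). All of these were higher at 4C in every pair of libraries, and all were called in both sets of replicates.

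The steepest falls belonged to near-identical copies on chromosome 4, whose promoters are shown above. Gm428 had 50.2, 15.4, 29.2, 22.8, 25.7 and 33.7 TPM at E2C and 0.624, 0.168, 0.0161, 0.891 and 0.502 TPM at 4C, a log2 change of −4.35 (SE 0.573, limma adjusted p = 4.13e-09). At L2C it had 0.555, 31.9, 7.74, 179, 121 and 127 TPM, high in replicates 4 to 6 alone. At 6 hpa it had 16.1 to 28.9 TPM. LOC100502896, which shares its profile, changed by −4.28 (SE 0.531, limma adjusted p = 9.01e-10). Gm11757, Gm11758 and Gm13871, which also count as a single profile, changed by −2.91, −2.81 and −2.80.

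**Figure D4:**
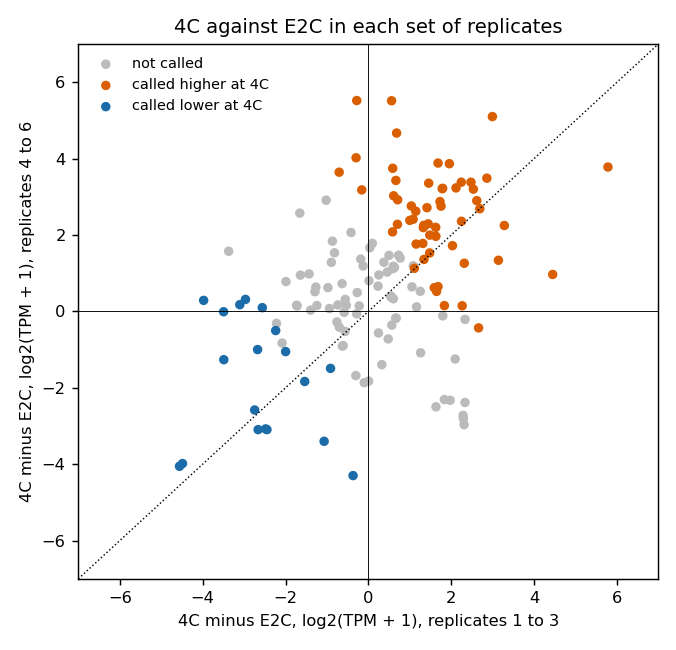
Log2 change from E2C to 4C of each of the 150 genes in replicates 1 to 3 against the same in the later replicates. Of the 75 genes called over all replicates, 66 change the same way in both sets, with Hba-a1 among the highest and Gm428 among the lowest.

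The fixed list of 2-cell genes linked to DUX and MERVL gave a partial overlap with the 150 genes. Of its 30 names 28 were measured, 19 reached 20 TPM at L2C and 5 were among the 150 genes, namely Zfp352, Gm4027, BB287469, Rfpl4b and AF067061. Gm4340, on the list but not among the 150 genes, overlapped Gm21304 and its near-identical copies on the same strand. The count by name therefore leaves out genes that share a locus with a list gene. Of 27 list genes tested, 11 were higher and 2 lower at 4C than at E2C, where 27.0% and 29.7% of all genes were, with a median log2 change of 0.99 against 0.01 over all genes. None of the 5 shared genes passed the test, with log2 changes of −0.02 for Zfp352, −0.30 for Rfpl4b, 0.21 for AF067061, 0.76 for Gm4027 and 0.99 for BB287469.

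Zfp352, a retrogene zinc finger factor of the 2-cell stage, showed how such a gene behaved by library. It had 11.1 to 18.003 TPM at 14 hpa, 76.3, 75.9, 56.1, 70.5, 28.7 and 48.2 TPM at E2C, 8.55, 84.05, 70.3, 148, 113 and 147 TPM at L2C, and 43.3, 182, 68.7, 43.4 and 21.8 TPM at 4C. The 3 cleavage stages overlapped, and the low L2C value was again that of replicate 1. At 8C it had at most 4.78 TPM, and at morula 45.98 TPM in replicate 3 and at most 0.235 TPM elsewhere.

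The copies of Gm21304 were likewise present over several stages. Gm21304 had 21.9 to 48.8 TPM at 14 hpa and 46.8, 32.4, 17.1, 83.2, 75.1 and 97.95 TPM at E2C. At 4C it had 195, 197 and 93.5 TPM in replicates 1 to 3 and 8.97 and 26.1 TPM in replicates 4 and 5, so the sets moved in opposite directions from E2C.

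Early embryo transcription factors gave 1 gene to the list, Id2, which encodes an inhibitor of basic helix-loop-helix factors and is also 1 of the 8 TE markers used here. It was lower at 4C than at E2C, with a log2 change of −1.43 (limma adjusted p = 0.0264). The call was lost in replicates 1 to 3 alone (−1.54, adjusted p = 0.0993 in limma) and with the compared groups alone (limma adjusted p = 0.0856). It was also lost without the filter on low TPM, with TPM rescaled over annotated genes, and without replicate 1, 4 or 5 (limma adjusted p of 0.0514 to 0.0809). Of the 22 tested factors on the fixed list that holds Id2, 6 were higher and 6 lower. Id2 was far more abundant in CCs, with 1100.5 to 1526 TPM, and in TE, with 341 to 1089 TPM, than at L2C, with 67.7 to 158 TPM. The other fixed lists held none of the 150 genes. In 4C against E2C, where 27.0% of all genes were higher and 29.7% lower, 8 of 18 p53 targets were higher and 0 lower, 3 of 15 ATF4 stress genes higher and 3 lower, and 1 of 13 immediate early genes higher and 2 lower. For ribosome biogenesis 20 of 24 were higher and 0 lower, for RNA processing and export 11 of 12 and 0, and for cytoskeleton and membrane genes 4 of 8 and 0.

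Part of the 150 genes were expressed in the donor cells, and the comparison of CCs with ICM asked how they stood at both ends of the reprogramming course. In single CC libraries 95 to 96 of the 150 genes reached 1 TPM, where 9813 to 10340 of all 24421 gene names did. In CCs, 89 genes were at 1 TPM or more in all 3 libraries, 45 were below 1 TPM in all 3 and 26 of these were listed at 0. For 19 genes the CC mean lay above the L2C mean. The share over all genes was not computed for the counts over all 3 libraries or for these means, so nothing is read from them. By limma, 36 genes were higher in CCs than in ICM and 6 lower, where 21.0% and 16.9% of 12084 genes were (37.9% in all). ICM replicates 1 to 3, in which the median of the 150 genes was 0.165 to 0.358 TPM, had 6177 to 6771 genes at 1 TPM or more, against 9011 to 10032 in ICM replicates 4 to 6. With ICM replicates 4 to 6 alone, an alternative added after seeing the data, 28 were higher in CCs and 12 lower, where 16.9% and 24.3% of 12131 genes were.

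The card-domain gene 1110007C09Rik (Card19) differed most, with 238 to 293 TPM in CCs and 0 to 5.49 TPM in ICM, a log2 difference of 6.85 (limma adjusted p = 2.12e-11). Gstm1 had 143, 113 and 103 TPM in CCs and 0 to 12.5 TPM in ICM, a log2 difference of 5.91 (limma adjusted p = 4.30e-07). Fkbp7, a peptidyl-prolyl isomerase of the endoplasmic reticulum, differed by 5.35, Slc38a2 by 5.13 and 2810417H13Rik by 4.56. These were genes of the donor cell, and their lower level at 6 hpa and 14 hpa than at L2C was set by the choice. Of those lower in CCs, the immunoproteasome subunit gene Psmb9 differed by −4.03 (limma adjusted p = 1.11e-06), with 2.10 to 7.09 TPM in CCs and 59.1 to 92.2 TPM in ICM. 4930548H24Rik differed by −3.31, the spindle protein gene Hmmr by −1.85 and Pabpn1, the nuclear poly(A)-binding protein gene, by −1.31.

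At the other end, 21 genes were below 1 TPM in every CC, ICM and TE library. The 21 genes were Frmpd1os, 4930547E08Rik, AF067061, 1700065O20Rik, AU015228, 1700069L16Rik, Gm13078, Ankrd22, Gm13871, 1600025M17Rik, Gm11757, Gm11758, Gm21304, Gm6763, Gm428, Gm8764, Gm21293, LOC100502896, Gm21312, Gm20765 and the chemokine gene Cxcl10. Among their 16 promoter windows 11 held GGATTA (68.8%), against 11 of the 109 windows of the other genes (10.1%). Counting similar windows once, 4 of 9 held it. Their windows were poor in CG dinucleotides, with a median of 2 against 17 in the others, and their transcripts were short, with a median of 1246 bases and 2.5 exons.

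Between the lineages of the SCNT blastocyst, 2 of the 150 genes were higher and 7 lower in ICM than in TE by limma, where 1.47% and 3.87% of 11867 genes were (5.34% in all). In replicates 1 to 3 alone 0 were higher and 15 lower, where 1.18% and 7.21% of 11610 genes were. In replicates 4 to 6 alone 8 were higher and 9 lower, where 4.16% and 3.46% of 11972 genes were. The lower count of genes at 1 TPM or more in ICM replicates 1 to 3, given above, moved with the sets. With the replicate number as a block 10 were called, and without the libraries numbered 2 only 4. Lgals1, Ndrg1 and 1110007C09Rik were lower in ICM in both sets and 0 genes were higher in both, where 0.725% and 0.296% of 11166 genes were. Fbxo36 was called in opposite directions, with −3.24 in replicates 1 to 3 and 1.502 in replicates 4 to 6. The 8 TE markers summed to 2501 to 9411 TPM in ICM and 6304 to 18372 TPM in TE libraries, which overlapped, and the 7 ICM markers to 211 to 764 TPM and 62.9 to 338 TPM. Their part in these differences was not tested.

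Lgals1, which encodes the beta-galactoside-binding galectin 1, had 171 to 666 TPM in ICM (median 235) and 770 to 2285 TPM in TE (median 1384.5). The lineages did not overlap, with a log2 difference of −2.32 (limma adjusted p = 0.00388). 1110007C09Rik had 0 to 5.49 TPM in ICM and 6.90 to 33.9 TPM in TE, with a log2 difference of −3.38 (limma adjusted p = 0.000235). It lost its call when ICM and TE alone were fitted. It was the second of the called genes without overlap, and no gene higher in ICM was free of overlap, where 0.396% of all genes were lower without overlap and 0.244% higher. The called genes with overlapping libraries were BC028528 with 2.52, 4930548H24Rik with 1.43, Ndrg1 (a stress-induced, differentiation-related gene) with −3.23, Fam216a with −2.25, Fem1c with −1.99, Arrdc4 with −1.96 and G2e3 with −1.80. In replicates 4 to 6 alone, G2e3 was at 0.35, Fem1c at −0.38, Fam216a at −0.89 and Arrdc4 at −0.98, and none of these 4 was called. BC028528 and 4930548H24Rik were at 2.02 and 0.25 in replicates 1 to 3, where neither was called. Ndrg1 was at −3.91 and −2.56 in the separate sets.

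The MO experiment asked whether loss of MAX, the dimerization partner of the MYC family, or of MCRS1, a subunit of the NSL and INO80 chromatin complexes, changed expression in fertilized blastocysts. The targeted RNA was read first. In ICM, Max had 38.0 and 8.42 TPM in the controls and 6.82 and 0.443 TPM after Max MO, and Mcrs1 had 253 and 310.05 TPM in the controls and 86.8 and 73.4 TPM after Mcrs1 MO. In TE, Max had 34.5 and 28.5 TPM against 16.3 and 8.68 TPM, and Mcrs1 219 and 294 TPM against 41.1 and 45.5 TPM. A MO blocks translation or splicing, so that the RNA level need not follow the protein.

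Control ICM replicate 1 stood apart. Its 8 TE markers summed to 18335 TPM, inside the 17620 to 24241 TPM of the 6 TE libraries, while control ICM replicate 2 had 1450 TPM. The Max MO ICM libraries had 3891 and 6876 TPM and the Mcrs1 MO ICM libraries 13683 and 10047 TPM. These sums differed along with the groups compared in ICM, and their part in the results there was not tested. Both control ICM libraries also held high ICM markers, whose 7 genes summed to 1424 TPM in 1 and 1906 TPM in the other. The ICM marker sums were 1050 and 1166 TPM in ICM after Max MO and 408 and 985 TPM after Mcrs1 MO. In TE they were 205 and 323 TPM in the controls, 160 and 225 TPM after Max MO and 429 and 560 TPM after Mcrs1 MO. Both MO comparisons of a lineage used the same 2 control libraries.

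Of the 150 genes 108 passed the filter of a mean of 1 TPM in this experiment. After Max MO 11 were higher and 16 lower in ICM, where 8.65% and 15.1% of 11219 genes were (23.7% in all), and 0 were higher and 2 lower in TE, where 1.04% and 1.45% were (2.50% in all). After Mcrs1 MO 4 were higher and 5 lower in ICM, where 4.88% and 5.21% were (10.1% in all), and 0 were higher and 1 lower in TE, where 1.77% and 3.31% were (5.08% in all). With 2 libraries a group, single ones mattered, and Mcrs1 MO in ICM gave 17 calls without the libraries numbered 1 and 4 without those numbered 2. The difference of the MO effect between ICM and TE, tested as an interaction in limma, passed for 0 of the 108 genes and 0 of 11219 genes after adjustment for either MO. At an unadjusted p under 0.05 it passed for 15 of the 108 genes for Max MO, where 13.1% of all genes did, and for 14 for Mcrs1 MO, where 8.66% did.

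**Figure D5:**
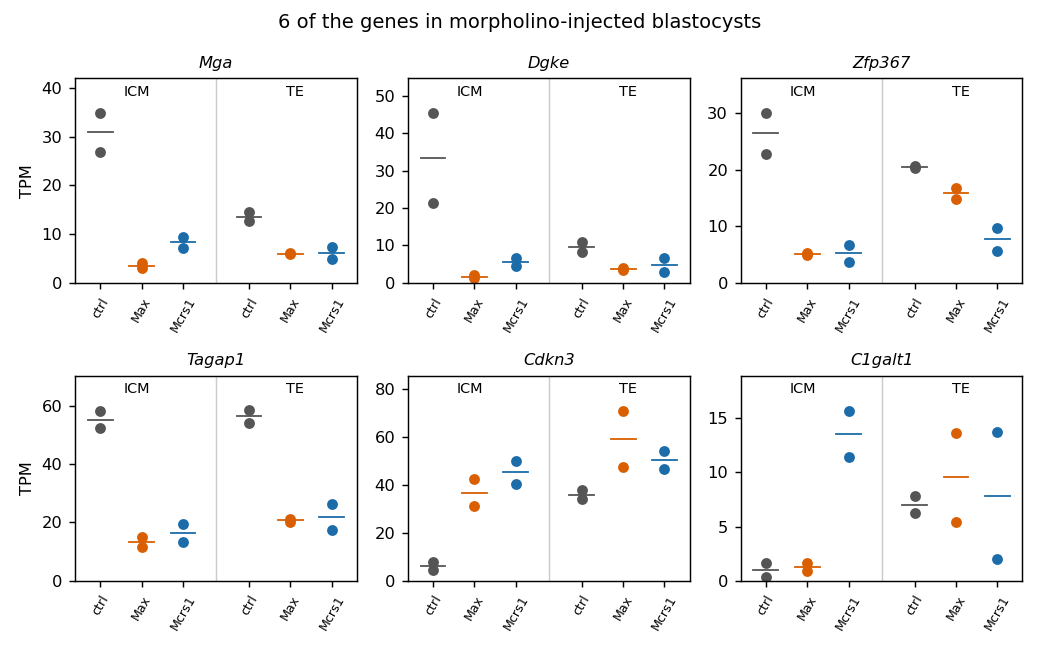
TPM of Mga, Dgke, Zfp367, Tagap1, Cdkn3 and C1galt1 in the 2 control, 2 Max MO and 2 Mcrs1 MO libraries of ICM and TE, where points are libraries and bars their means. Tagap1 lies lower after either MO in both lineages, and the control ICM libraries of Mga, Dgke and Zfp367 lie above all others of ICM.

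Mga, which encodes a large DNA-binding partner of MAX, had 26.9 and 34.9 TPM in control ICM, 2.97 and 4.00 TPM after Max MO and 9.52 and 7.20 TPM after Mcrs1 MO. The log2 change was −2.83 after Max MO (SE 0.432, limma adjusted p = 0.00169) and −1.77 after Mcrs1 MO (limma adjusted p = 0.0278). Without the libraries numbered 2 the latter was −1.41 and not called. In TE it had 14.5 and 12.7 TPM in the controls, 5.97 and 6.10 TPM after Max MO and 4.82 and 7.45 TPM after Mcrs1 MO, which did not pass, with log2 changes of −1.05 and −1.06 (limma adjusted p = 0.199 and 0.160).

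Dgke, a diacylglycerol kinase, had 21.2 and 45.3 TPM in control ICM and 2.04 and 1.34 TPM after Max MO, a log2 change of −3.59 (limma adjusted p = 0.00166), and changed by −2.30 after Mcrs1 MO, which was −1.56 and not called without the libraries numbered 2. Tagap1, a GTPase-activating protein gene, was lower in TE after either MO, with 58.8 and 54.2 TPM in the controls, 20.1 and 21.2 TPM after Max MO and 17.4 and 26.2 TPM after Mcrs1 MO. Its log2 change there was −1.41 after Max MO (limma adjusted p = 0.0498) and −1.36 after Mcrs1 MO (adjusted p = 0.0386 in limma). In ICM it had 52.4 and 58.2 TPM in the controls, 11.7 and 15.0 TPM after Max MO and 13.2 and 19.5 TPM after Mcrs1 MO, with log2 changes of −1.98 and −1.72 (adjusted p of 0.00254 and 0.0122 by limma). Among the alternatives tried, the TE call after Max MO was lost under 6 and that after Mcrs1 MO under 3, with either replicate number left out in both cases.

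Among genes higher in ICM after a MO, Cdkn3, a phosphatase of cyclin-dependent kinases, had 7.74 and 4.32 TPM in the controls and 42.3 and 31.2 TPM after Max MO, a log2 change of 2.45 (limma adjusted p = 0.00135). After Mcrs1 MO it changed by 2.75 (limma adjusted p = 0.00366). Gstm1 had 2.43 and 5.76 TPM in the controls and 32.0 and 38.1 TPM after Max MO, a log2 change of 2.90 (limma adjusted p = 0.00336). Fbxo36, an F-box gene, changed by 3.05 (limma adjusted p = 0.00321) and Arrdc4, an arrestin-domain gene, by 2.07 after Max MO, and Hba-a1 was called but listed at 0 in the controls. After Mcrs1 MO, C1galt1 changed by 2.93 (limma adjusted p = 0.0349), Depdc1a by 1.64 and the calmodulin gene Calm2 by 1.11. Without the libraries numbered 2, the changes of C1galt1 (2.65), Depdc1a (1.91) and Calm2 (0.78) after Mcrs1 MO and of Arrdc4 (1.38) after Max MO were not called, and without those numbered 1 C1galt1 (3.21) and Depdc1a (1.38) were not.

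Also lower in ICM were Snord7, Gm15455 and the fatty acid desaturase gene Scd1 after Max MO, with log2 changes of −2.92, −2.55 and −2.53, and Gm15455 after Mcrs1 MO, with −2.83. Zfp367 had 22.8 and 30.1 TPM in control ICM, 4.89 and 5.21 TPM after Max MO and 3.71 and 6.75 TPM after Mcrs1 MO, with a log2 change of −2.17 after either (limma adjusted p = 0.00562 and 0.0141). Without the libraries numbered 1, Zfp367 after Mcrs1 MO (−1.62) and Gm15455 after Max MO (−2.18) were not called, and without those numbered 2 neither were Snord7 after Max MO (−2.19) and Gm15455 after Mcrs1 MO (−2.10). In TE, Snord7 was listed at 0 after Max MO. Snord7 is a small nucleolar RNA without a poly(A) tail, for which a polyadenylated library is a poor measure.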

How the data were processed

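Smart-seq2 RNA was measured in 68 libraries. Per the labels, the authors trimmed reads with cutadapt 1.16, aligned them to mm10 with HISAT2 and ran StringTie, and their processing notes also name Cufflinks and deepTools. The deposited gene tables hold TPM, FPKM and coverage per gene. TPM is a signal scaled by the authors so that assembled loci sum to 1000000, with annotated gene names listed beside them. Coverage and FPKM were used here for depth alone. TPM was summed per gene name. The authors tested counts with DESeq2. These files hold no counts, so limma 3.58.1 (R 4.3.3; lmFit and eBayes with trend) was fitted on log2(TPM + 1) over all genes with a mean of at least 1 TPM, and fold changes of low genes are understated on this scale. P-values were adjusted by Benjamini-Hochberg over all those genes, and calls needed an adjusted p under 0.05 and at least 2-fold. SCNT libraries shared 1 estimate of spread, as did MO libraries. The test was tried on simulated data. Python 3.11.15 with numpy 2.4.6, pandas 2.3.3 and matplotlib 3.10.9 did the rest.

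Genes were named by a fixed rule: the 30 highest ratios, list members, up to 5 called genes each way without overlap between libraries, the edges of the list, extreme E2C and 4C shares, and neighbours within 100 kb. The genes and lists were chosen with earlier results of these data known. Called genes with overlapping libraries, and Tagap1 and Zfp367 after Max MO in ICM, were added after their values were seen. Same-numbered ICM and TE libraries deviated together from their group means (r 0.131 to 0.300 in all 6 pairs). Only 2 libraries correlated best with their own number, so a pairing by number was not shown. The values cannot tell such a pairing from a difference shared by the replicate sets. Other groups shared only a number. One 4C library is replicate 5 by its label. Alternatives covered the pseudocount, filter, scaling, samples fitted, replicate sets and single libraries.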

Additional observations from a re-analysis of the deposited data

Results flagged for a closer look

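In 19 groups of values a library was looked for that lay far from the rest, a check that chance alone trips in about 1 of 20 groups. The median TPM of the 150 genes was 8.79 in morula replicate 3, the highest of the 6 morula libraries, against 2.31 to 3.63 TPM in the other 5. Zfp352, at 45.98 TPM, was also highest in that library. Rbp7 was at 184.6 TPM in L2C replicate 3, far above the other 5 L2C libraries, of which the lowest had 53.2 TPM.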

How the results depend on the processing

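Of 102 counts under alternatives 80 stayed within 1.5 times. Of the 150 genes, 99 were still chosen from replicates 4 to 6, 64 with a floor of 5 TPM, 58 with a floor of 50 TPM and 90 with TPM rescaled over annotated genes. Leaving out single replicates kept 131 to 141, and the omission of L2C replicate 1 alone, added after seeing the data, 138. ICM against TE gave 1 call from the compared groups alone, 15 and 17 from replicates 1 to 3 and 4 to 6, and 4 to 11 without single replicates, with the 4 without replicate 2. For Max MO in ICM the lineage alone gave 13 calls, and single omissions 26 to 35. For Max MO in TE the lineage alone gave 10, the replicate block and a pseudocount of 0.1 gave 1 each, and no filter, quantile normalization and every single omission gave 0. For Mcrs1 MO in ICM the lineage alone gave 0 calls, omission of replicate 2 gave 4 and of replicate 1 gave 17. For Mcrs1 MO in TE quantile normalization gave 0, the lineage alone 6 and single omissions 0 to 1. Single omissions gave 63 to 71 calls for 4C against E2C and 32 to 43 for CC against ICM. The cause of these shifts was not tested. Where groups shared only a number, the replicate block gave 76 calls for 4C against E2C, 44 for CC against ICM, 27 for Max MO and 9 for Mcrs1 MO in ICM, and 1 for Mcrs1 MO in TE. Every sample correlated best with its own number in none of the comparisons with 3 or more pairs. Of 837 values for single genes, those named by the rule and 20 others that the text names in a comparison, some of them chosen after their values were seen, 722 kept their side of the threshold, 97 lost their call with the same direction, 4 gained one and 14 changed sign. In 4C against E2C, replicates 1 to 3 gave −1.66 for Scd1 and 0.24 for Zfp352, and replicates 4 to 6 gave −1.25 for 2700099C18Rik and −0.36 for AF067061. Zfp352 was at 0.12 with TPM rescaled over annotated genes and Rfpl4b at 0.069 with quantile normalization. Single omissions gave −0.18 to 0.97 for Scd1, −0.36 to 0.15 for Zfp352 and −0.52 to 0.80 for AF067061. In ICM against TE, replicates 4 to 6 gave 0.35 for G2e3 and 1.502 for Fbxo36. Without counts, counting error could not be given, and the depth of 1.00 gigabases in the shallowest MO library limits values near 1 TPM.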
